A study of Rattus norvegicus with 12 samples.

Results

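Kdr, the receptor tyrosine kinase that carries most of the signal of vascular endothelial growth factor (VEGF) in endothelial cells, was followed together with 7 other genes of vascular growth and endothelial identity (Flt1, Tek, Pecam1, Cdh5, Eng, Vegfa and Pgf). The 8 genes were taken by symbol, each by the probe set of highest mean signal over the arrays. Of these 8, 7 had a probe set (12 probe sets in all) out of 14218 genes with one, and all 7 passed the low-signal filter that left 10082 genes for testing. Cdh5 is not analysed here. The set was chosen by measured values: Kdr was selected on its rise with the ligands and with ligand plus RU486 in these same arrays. Its values in those comparisons are therefore given as a description with an error and without a p-value.

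Cardiomyocytes were cultured from the ventricles of Wistar rats 1 day of age and were prepared apart from cardiac fibroblasts by their weaker adhesion to the dish. After 24 h in OPTI-MEM they received for 3 h either the vehicle ethanol or 1 of the ligands CVZ, COR and ALD, which in this study are known as cortivazol (a synthetic glucocorticoid), corticosterone and aldosterone. The other 4 groups were pretreated with RU486, which antagonises the glucocorticoid receptor, at 10 µM, and received no ligand, CVZ, COR or ALD. The groups without RU486 were each represented once in both of 2 experiments (n = 2), and those with RU486 by 1 array each, in the second experiment only. The labels give no ligand doses, and nothing in them says that the experiments came from separate culture preparations, so the p-values reflect no more than array-to-array spread, which may be technical. Signals are the deposited intensities, scaled so that the median of each array is 1, and a signal is compared only with that of the same probe set. The 10 cardiomyocyte markers with a probe set were all above the filter, as were 10 fibroblast and 10 of 14 endothelial markers.

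VEGF ligands such as Vegfa and placental growth factor (Pgf) are secreted and bind receptors on the endothelial surface. Kdr (VEGF receptor 2) signals for growth, survival and permeability, whereas Flt1 (VEGF receptor 1) binds Vegfa and Pgf tightly, signals weakly and in its soluble form acts as a decoy. Tek (Tie2) is the receptor of the angiopoietins, Eng (endoglin) a co-receptor of the transforming growth factor beta family, and Pecam1 an adhesion molecule of endothelial junctions. In the heart Vegfa is made largely by cardiomyocytes, and its receptors lie mainly on the endothelium.

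The promoters of the VEGF receptor genes Kdr and Flt1 are shown because the ligands act through receptors that can bind DNA. Kdr, selected on its rise and given no p-value for it, differed widely between vehicle and ligand, while Flt1 did not pass the test. Whether the responses of Kdr and Flt1 differ from each other was not tested. The sequences are the 250 bases before the RefSeq start site on GRCr8, 5′ to 3′, at chr14:32571813-32572062 (plus strand) for Kdr and chr12:12333180-12333429 (plus strand) for Flt1, with matches to the GC box GGGCGG and to the ETS core GGAAG, on either strand, in capitals.
Kdr: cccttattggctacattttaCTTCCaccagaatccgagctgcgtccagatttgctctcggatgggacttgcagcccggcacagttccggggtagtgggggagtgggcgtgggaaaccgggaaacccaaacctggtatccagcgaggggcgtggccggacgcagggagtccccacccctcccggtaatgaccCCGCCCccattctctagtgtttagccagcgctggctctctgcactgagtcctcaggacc
Flt1: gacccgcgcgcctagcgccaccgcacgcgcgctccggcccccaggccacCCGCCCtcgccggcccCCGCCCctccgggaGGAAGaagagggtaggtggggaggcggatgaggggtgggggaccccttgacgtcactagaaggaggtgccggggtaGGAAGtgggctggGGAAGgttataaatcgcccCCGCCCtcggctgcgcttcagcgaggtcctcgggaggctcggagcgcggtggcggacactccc

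Promoter windows from 250 bases before to 50 after the start site were found for 5 of the 8 genes, in 6 windows. The Kdr window held 1 GC box and 1 ETS core, and the Flt1 window 3 of each. Over 33469 windows of this length, 33.1% held a GC box and 70.1% an ETS core. Neither the full glucocorticoid response element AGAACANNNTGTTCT, found in 0.0149% of windows, nor its half-site TGTTCT, found in 20.7%, occurred in the Kdr or Flt1 window on either strand. Of the hypoxia core only the form ACGTG, found in 19.3% of windows, was searched, and it was absent from both as well. The form GCGTG was not counted over the windows, and it occurs in both printed sequences when either strand is read. The half-site lies within the full element and was counted separately. Its only match in the 6 windows was in the second of the 2 Vegfa windows. A match or its absence describes these letters in this window only.

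Kdr signal on each array with a ligand was 2.0 to 5.32 times that on the vehicle array of the same experiment. In the first experiment it was 4.93 with vehicle, 12.6 with CVZ, 15.3 with COR and 9.86 with ALD. In the second it was 2.45, 12.5, 13.02 and 8.86. The 6 ligand arrays, between 8.86 and 15.3, did not overlap with the vehicle arrays, and in both experiments COR was highest and ALD lowest of the ligands. Kdr was selected on this rise, and the share of all probe sets that separate in this way was not counted. The group means were 3.69 ± 1.8 for vehicle, 12.5 ± 0.055 for CVZ, 14.1 ± 1.6 for COR and 9.36 ± 0.71 for ALD (SD, n = 2). The vehicle arrays thus differed from each other in proportion more than those of any ligand. In bulk cultures fewer cells of a type and less RNA per cell cannot be told apart. The summed signal of 14 endothelial markers, Kdr not among them, was 21.9 with vehicle and 26.0 to 30.7 with ligand in the first experiment, and 14.9 and 14.1 to 18.3 in the second. Thbd, which CVZ raised, is in this sum. Without it the 13 others summed to 21.1 with vehicle, 25.4 with CVZ, 25.2 with COR and 24.5 with ALD in the first experiment, and to 14.2, 15.6, 13.5 and 13.3 in the second. The part of these markers in the Kdr values was not tested.

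**Figure D1:**
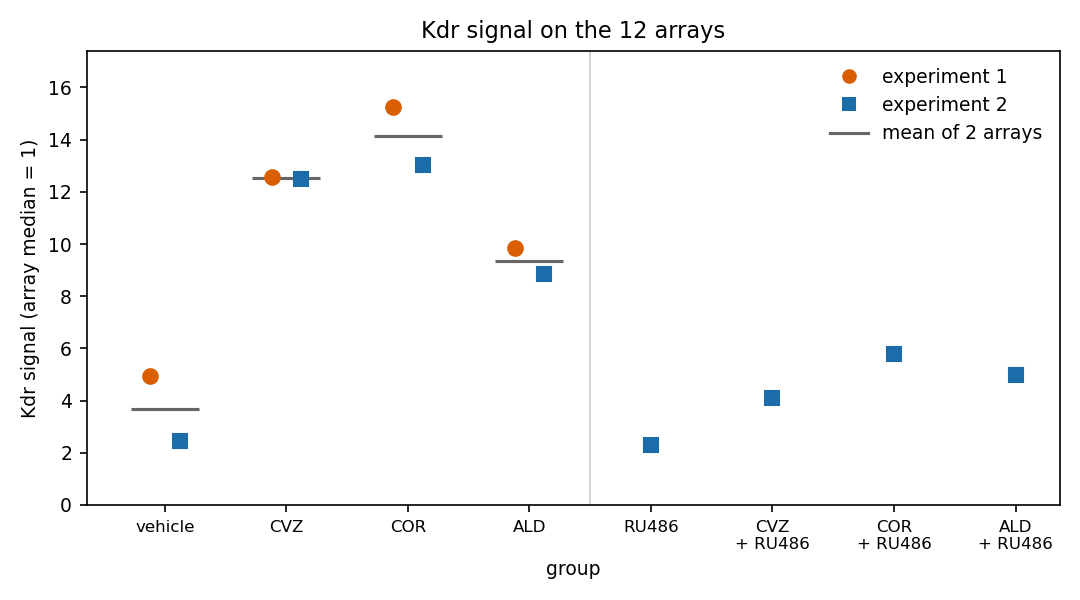
Signal of Kdr (linear scale, array median set to 1) on each of the 12 arrays by group, with circles for the first and squares for the second experiment and a bar at the mean where a group has 2 arrays. The ligand arrays sit between 8.86 and 15.3, above the vehicle arrays at 2.45 and 4.93, and the arrays with ligand plus RU486 lie between 4.10 and 5.77, above RU486 alone at 2.30.

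Fitted over both experiments, the log2 difference of Kdr from vehicle was 1.83 ± 0.19 (SE) for CVZ, 2.00 ± 0.19 for COR and 1.41 ± 0.19 for ALD, or 3.55, 4.0 and 2.65 times. These 3 differences share the vehicle arrays. Within the first experiment they were 1.34, 1.62 and 0.99, and within the second 2.32, 2.38 and 1.83, larger for every ligand where the vehicle signal was lower. The array carries a second Kdr probe set, 1397868_at, whose signal lay between 0.0132 and 0.369 on all 12 arrays, below the filter on low signals. Its log2 differences were 0.63, 1.01 and 0.43 for CVZ, COR and ALD. Unless stated, Kdr values are those of 1367948_a_at.

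The order of the ligands for Kdr was not resolved. COR exceeded CVZ by 0.17 on the log2 scale (95% interval -0.23 to 0.57, limma adjusted p = 0.87), ALD minus CVZ was -0.42 (-0.82 to -0.02, adjusted p = 0.32) and ALD minus COR was -0.59 (-0.99 to -0.19, adjusted p = 0.43). The adjustment in these 3 pairs of ligands ran over all 18625 tested probe sets, of which 0.966%, 4.25% and 0.295% were called at an adjusted p below 0.05. Of the other 6 genes measured, limma called 0 in any of the 3 pairs, while 1 (Eng, COR against CVZ), 2 (Flt1 and Pecam1, ALD against CVZ) and 0 had an unadjusted p below 0.05. Since the doses are not in the labels, these are differences between the cultures as treated.

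With RU486 alone Kdr read 2.30, against 2.45 for vehicle in the same experiment. CVZ, COR and ALD on top of RU486 gave 4.10, 5.77 and 5.00. All 3 lay above RU486 alone and below all 6 arrays with ligand alone, and 2 of the 3 (COR and ALD) were also above the higher vehicle array at 4.93. Such an order was not counted over all probe sets. RU486 alone differed from vehicle by -0.41 (95% interval -0.92 to 0.10, adjusted p = 0.84) in a comparison that called 0.129% of probe sets and 0 of the other 6 genes, 0 of them also at an unadjusted p below 0.05. That value was -0.09 within the second experiment, and without the second vehicle array it was -0.95 (adjusted p = 0.17).

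Relative to RU486 alone, Kdr with ligand plus RU486 was 0.82 ± 0.27 (CVZ), 1.30 ± 0.27 (COR) and 1.10 ± 0.27 (ALD) higher on the log2 scale, with a mean of 1.07 ± 0.22 (95% interval 0.61 to 1.53), or 2.10 times. The order of the ligands with RU486 had ALD above CVZ, whereas without RU486 CVZ was above ALD in both experiments. Each difference from RU486 alone rests on 1 array with ligand plus RU486, whose spread was taken from the other groups. All of them share the same 1 array with RU486 alone, so the differences and their mean are not independent of each other. That shared array had the lowest Kdr signal of the 12 arrays, at 2.30. In this averaged comparison limma called 0% of probe sets and 0 of the other 6 genes, while 462 probe sets (2.48%) and 0 of the 6 genes had an unadjusted p below 0.05.

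Against ligand alone, Kdr with ligand plus RU486 was lower by a log2 difference of -1.08 ± 0.15, and against vehicle it was higher by 0.66 ± 0.18. The response with RU486 minus the response without, the interaction, was -0.67 ± 0.27 (95% interval -1.24 to -0.11). These 2 last values moved with the vehicle arrays. Without the first vehicle array they became 0.99 and -1.10, and without the second 0.12 and -0.24, each with an unchanged sign. Among all probe sets 0.795% were called against vehicle and 1.09% for the interaction, with 0 of the other 6 genes in either (at an unadjusted p below 0.05, 0 and 1, Pecam1). The second Kdr probe set read 0.245, 0.369 and 0.234 with ligand plus RU486, higher by 1.31 than with ligand alone, the opposite sign.

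To place these values, Kdr was set beside Fkbp5, a chaperone gene widely used as a readout of the glucocorticoid receptor. Fkbp5 read 1.52 with vehicle, 43.5 with CVZ, 26.6 with COR and 10.9 with ALD in the first experiment, and 2.17, 43.8, 28.2 and 13.4 in the second. With RU486 alone it read 2.40, and with CVZ, COR and ALD on top 4.25, 4.85 and 5.33. Fkbp5 thus ranked the ligands CVZ, COR, ALD in both experiments, and in the reverse order with RU486.

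Of the log2 response averaged over ligands, 61.4% of that of Kdr (1.75 without RU486, 1.07 with) and 26.5% of that of Fkbp5 (3.70 and 0.98) remained with RU486. Within the second experiment, where vehicle and RU486 arrays were run together, the part left for Kdr was 35.2% for CVZ, 54.7% for COR and 60.0% for ALD, and for Fkbp5 18.9%, 27.3% and 43.6%. For both genes it was smallest with CVZ and largest with ALD. The pooled 61.4% of Kdr lay above all 3 of its values within the second experiment. The pooled response without RU486 also averages in the first experiment, which had no RU486 arrays. There the differences from vehicle were smaller for Kdr and larger for Fkbp5 than in the second. The differences left were 0.82 to 1.30 for Kdr and 0.81 to 1.13 for Fkbp5 on the log2 scale.

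The 889 probe sets raised by CVZ, among which Kdr lies, gave the background for this. Their median response averaged over ligands was 0.64 without RU486 and 0.03 with it. With RU486, 7 of them (0.787%, Kdr included) were at or above the 1.07 of Kdr. By ligand, 18 were at or above Kdr with CVZ (2.02%), 5 with COR (0.562%) and 9 with ALD (1.01%). As Kdr was selected on this value, its place near the top is a description. The 889 were picked by their call with CVZ in these same arrays, which favours a high response without RU486. Probe sets raised by COR or ALD but not called with CVZ are not among them.

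**Figure D2:**
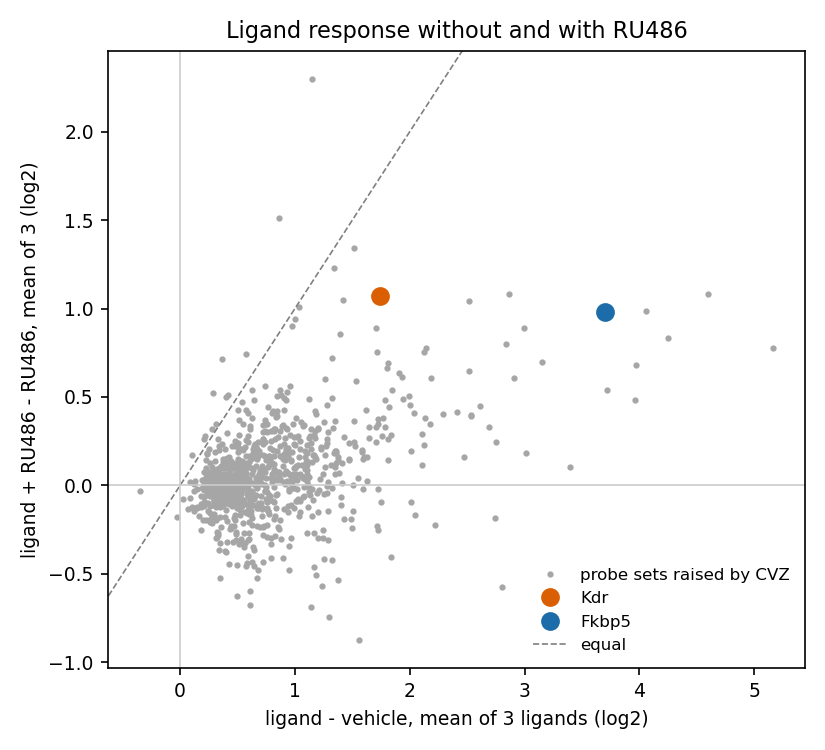
Each grey point is 1 of the 889 probe sets raised by CVZ, plotted by its log2 difference of ligand from vehicle (x axis, mean of 3 ligands) against that of ligand plus RU486 from RU486 (y axis, mean of 3), with a dashed line where both are equal. Most points lie near 0 on the y axis, with a median of 0.03, whereas Kdr (1.75 and 1.07) and Fkbp5 (3.70 and 0.98) lie well above it.

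Flt1, the other VEGF receptor measured, did not pass the test in any comparison. It read 0.590, 1.26, 0.584 and 0.537 with vehicle, CVZ, COR and ALD in the first experiment and 0.580, 0.857, 0.561 and 0.407 in the second. With RU486 it read 0.701 alone and 0.448, 0.541 and 0.582 with CVZ, COR and ALD. On this probe set both CVZ arrays were above all 10 others, a rank not counted over all probe sets. The log2 difference from vehicle, 0.76 ± 0.44, had an adjusted p of 0.40. The other Flt1 probe sets had CVZ above vehicle in both experiments too, but did not repeat the rank of the CVZ arrays. Vehicle and CVZ read 0.242 and 0.720 in the first and 0.622 and 0.763 in the second on 1370492_a_at. They read 0.568 and 0.659, and 0.361 and 0.433, on 1369087_at. On 1370492_a_at the first CVZ array, at 0.720, was below the first ALD array, at 0.762. On 1369087_at it was at 0.659, below the first COR array at 0.867. CVZ called 7.96% of all probe sets and 0 of the 6 genes other than Kdr, of which 2 (Pecam1 and Pgf) had an unadjusted p below 0.05 in limma. The geometric mean of the Flt1 probe set, 0.681, was just above the filter at 0.63, and its other probe sets were just below it, at 0.577 and 0.563.

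Tek, the angiopoietin receptor, did not pass the test with any ligand and was much lower in the second experiment. Its signals were 5.71 with vehicle, 6.20 with CVZ, 7.85 with COR and 6.18 with ALD in the first experiment, and 2.41, 2.44, 2.24 and 2.18 in the second. The RU486 arrays read 1.84 alone and 2.02, 1.99 and 2.24 with CVZ, COR and ALD. Every array of the first experiment was above every array of the second, a separation not counted over all probe sets. The log2 differences from vehicle were 0.07 (95% interval -0.33 to 0.46) for CVZ, 0.17 (-0.22 to 0.57) for COR and -0.02 (-0.41 to 0.38) for ALD, with adjusted p of 0.91, 0.80 and 0.99. COR called 3.39% of all probe sets and ALD 0.95%, in each case with 0 of the 6 genes other than Kdr (at an unadjusted p below 0.05 in limma, 1, Pecam1, and 0).

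Vegfa, the main growth factor of the family, was highest on the RU486 arrays. It read 20.9, 15.9, 17.2 and 16.1 with vehicle, CVZ, COR and ALD in the first experiment and 24.1, 23.5, 22.0 and 23.9 in the second. On the RU486 arrays it read 31.0 without ligand, and 29.4, 31.0 and 29.5 with CVZ, COR and ALD. The 4 RU486 arrays, all in the second experiment, thus lay between 29.4 and 31.0, and the other arrays of that experiment between 22.0 and 24.1. How many of all probe sets separate in this way was not counted. In the first experiment the ligand arrays were below vehicle by 0.28 to 0.39 on the log2 scale, and in the second by 0.01 to 0.13. Over both, CVZ gave -0.21 ± 0.11 (adjusted p = 0.31), COR -0.20 (0.45) and ALD -0.19 (0.66).

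Vegfa was the 1 gene of the 6 called for ligand plus RU486 against ligand alone, by 0.41 ± 0.08 (1.33 times, limma adjusted p = 0.0077), higher in 3 of 3 ligands. That comparison called 4.87% of all probe sets. The call was lost without the second COR array (0.38, adjusted p = 0.059) or without the array of CVZ plus RU486 (0.42, adjusted p = 0.064). RU486 alone differed from vehicle by 0.25 (95% interval -0.03 to 0.54, adjusted p = 0.80). The second Vegfa probe set, 1370081_a_at, gave 0.23 for ligand plus RU486 against ligand (adjusted p = 0.52), and on it the ALD array of the second experiment, at 10.1, lay within the RU486 arrays, 8.96 to 10.5. The median before division was 35.4 to 37.7 on the RU486 arrays and 21.1 to 33.7 on the others. Markers of other cell types differed in this comparison too. Of 10 cardiomyocyte markers 5 were called, all lower with RU486 (Myh6, Myh7, Tnni3, Myl2 and Pln), with a median log2 difference of -0.19, against 0.01 for all probe sets. Of 8 markers of smooth muscle and pericytes 2 were lower, with a median of -0.45, of 10 endothelial markers 1, with a median of -0.33, and of 10 fibroblast markers 0, with a median of -0.12. In the second experiment the cardiomyocyte markers summed to 2020 to 2300 with ligand and 1820 to 2040 on the RU486 arrays. The part of the array median and of these markers in the Vegfa result was not tested.

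Pgf, a ligand of Flt1, read 0.811 with vehicle and 2.15, 1.89 and 2.33 with CVZ, COR and ALD in the first experiment. In the second it read 1.04 and 1.32, 1.23 and 1.02. With RU486 it read 0.768 alone, and 0.925, 0.690 and 0.670. The ligand arrays were thus 2.33 to 2.88 times the vehicle array in the first experiment and 0.986 to 1.27 times in the second. The pooled differences, 0.83 ± 0.35 for CVZ (adjusted p = 0.20), 0.69 for COR (0.42) and 0.71 for ALD (0.57), did not pass. The second Pgf probe set, 1368919_at, gave 0.34, -0.37 and -0.70, which differs in sign for COR and ALD.

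Pecam1, the junctional adhesion molecule, came closest to a call with CVZ. It read 0.802, 1.73, 1.64 and 0.914 with vehicle, CVZ, COR and ALD in the first experiment, and 0.538, 1.24, 1.02 and 0.641 in the second. The RU486 arrays read 1.06 without ligand, and 0.735, 0.531 and 0.613. CVZ and COR lay above vehicle in both experiments, by 1.05 and 0.97 in the first and 1.11 and 0.84 in the second on the log2 scale. With RU486 all 3 ligands lay below RU486 alone. The pooled difference was 1.08 ± 0.34 for CVZ (adjusted p = 0.068) and 0.90 ± 0.34 for COR (adjusted p = 0.23), and the interaction was -1.44 ± 0.48 (adjusted p = 0.29).

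Eng read 3.31, 3.04, 4.01 and 3.29 with vehicle, CVZ, COR and ALD in the first experiment and 2.42, 1.88, 2.66 and 2.39 in the second. With RU486 it read 2.15 alone, and 2.16, 2.46 and 2.24. In both experiments CVZ was the lowest and COR the highest of these 4 treatments. The differences from vehicle were -0.23 for CVZ (95% interval -0.63 to 0.16), 0.20 for COR (-0.19 to 0.60) and -0.01 for ALD (-0.41 to 0.38), with adjusted p of 0.58, 0.75 and 0.99.

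**Figure D3:**
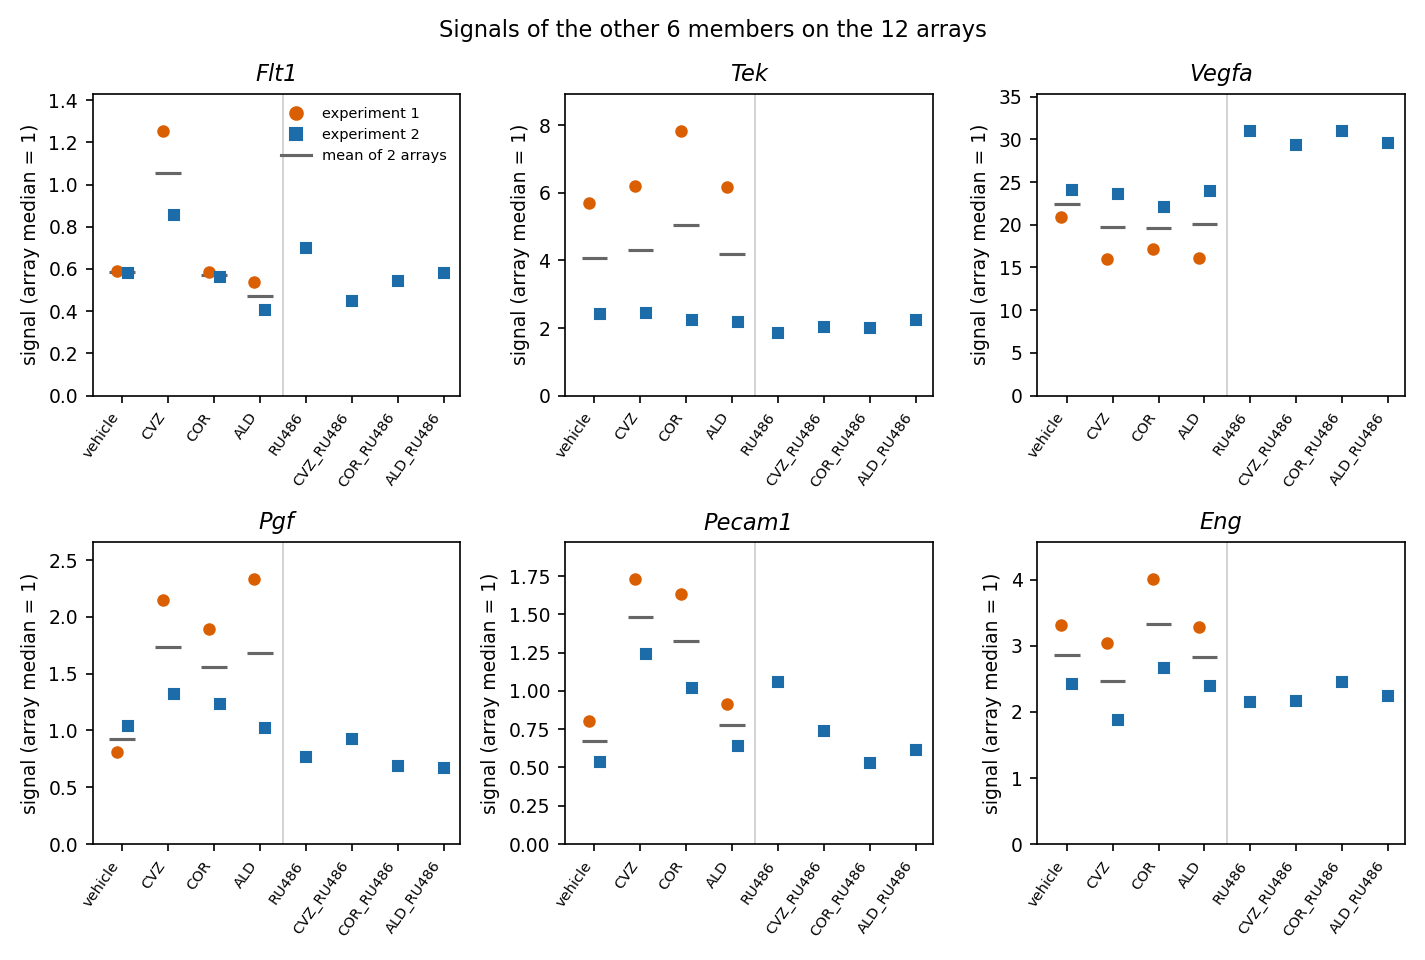
Signals of Flt1, Tek, Vegfa, Pgf, Pecam1 and Eng (linear scale, array median set to 1, a separate axis for each gene) on the 12 arrays by group, with circles for the first and squares for the second experiment and a bar at the mean where a group has 2 arrays. Tek separates by experiment (5.71 to 7.85 against 1.84 to 2.44), Vegfa is highest on the 4 RU486 arrays (29.4 to 31.0), and Pgf on the ligand arrays lies further above vehicle in the first experiment than in the second.

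**Figure D4:**
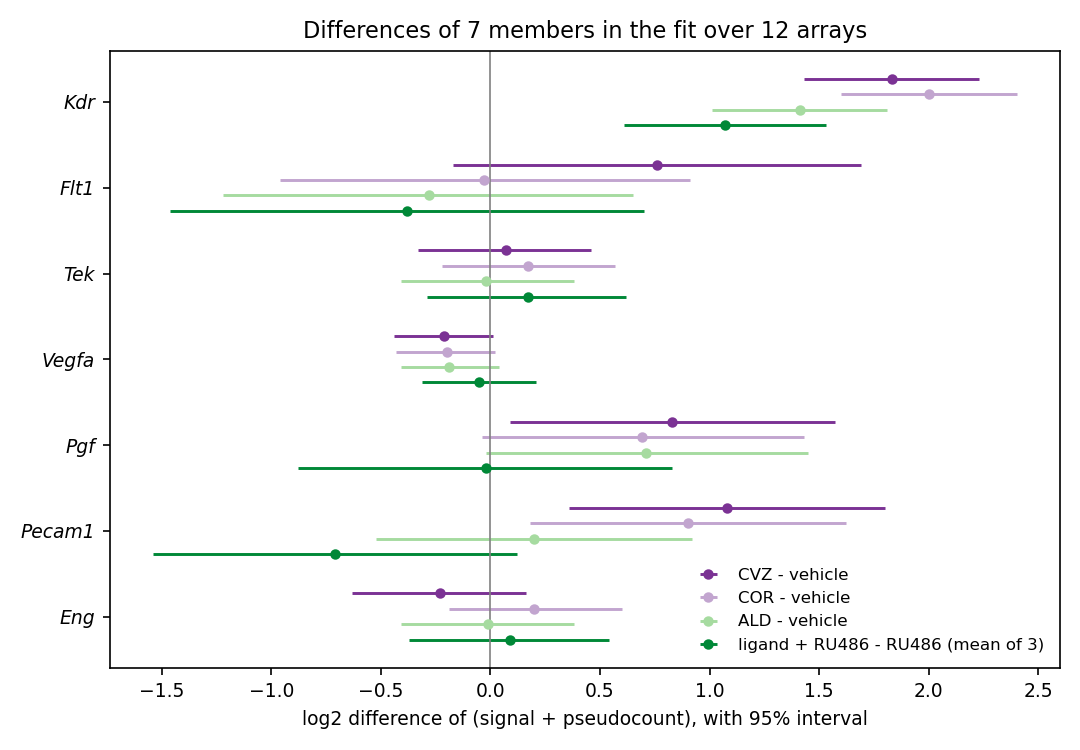
Log2 differences with 95% intervals for the 7 measured genes, for each ligand against vehicle (n = 2 arrays each) and for ligand plus RU486 against RU486, averaged over ligands (1 array each). All 4 intervals of Kdr, the gene selected on these differences, lie above 0, and so, unadjusted for the number of probe sets, do those of Pecam1 with CVZ (0.36 to 1.80) and COR (0.18 to 1.62) and of Pgf with CVZ (0.09 to 1.57), although 0 of the 6 other genes were called in these comparisons.

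The experiments differed for 38.9% of all probe sets, and 3 of the 6 genes other than Kdr were among those called. Tek was lower in the second experiment by a log2 difference of -1.45 ± 0.13 (limma adjusted p = 5.8e-07) and Eng by -0.54 ± 0.13 (0.0043), while Vegfa was higher by 0.42 ± 0.07 (0.00037). Kdr, at -0.35 ± 0.13, had an adjusted p of 0.051, Pgf was at -0.52 (0.11), Pecam1 at -0.52 (0.097) and Flt1 at -0.24 (0.58). The median of all probe sets in this comparison was -0.10, and another scaling of the arrays moved it to 0.03 (quantile) or 0.10 (trimmed mean). Tek and Vegfa kept their calls under both, and Eng lost its call with the trimmed mean (-0.34, adjusted p = 0.051). Of all calls 27.5% were higher in the second experiment, against 52.4% and 59.4% with these scalings.

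Kdr in this comparison passed the threshold when either CVZ array (-0.46, adjusted p = 0.024 without the first and 0.023 without the second) or either ALD array (-0.41, 0.042 and 0.039) was left out, and was -0.13 without either vehicle array. Pgf passed it without the first vehicle array (-0.80, adjusted p = 0.022) or without the second (-0.80, 0.023), and its second probe set gave -2.22 (adjusted p = 6.4e-05). The second Vegfa probe set rose as well, by 0.60 (0.0024).

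Markers of other cell types moved with the experiment, in which 38.9% of all probe sets were called, 27.5% of those calls being higher in the second. Of 10 tested endothelial markers 7 were lower in the second, among them Emcn, Esam, Icam2 and Plvap, with a median log2 difference of -0.90, and of 10 fibroblast markers 9, with a median of -1.31. Of 10 cardiomyocyte markers 4 were lower and 2 higher, with a median of -0.10. The 14 endothelial markers summed to 21.9 to 30.7 in the first experiment, and in the second to 14.1 to 18.3 without RU486 and 12.8 to 15.4 with it. Fibroblast markers summed to 368 to 450 in the first and 178 to 205 in the second, and cardiomyocyte markers to 2170 to 2350 and 1820 to 2300. The endothelial markers Vwf, Cldn5, Nos3 and Lyve1 were below the filter, and Robo4 and Cd34 are not analysed here. The part of these markers in the values of Tek, Eng and Kdr was not tested.

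**Figure D5:**
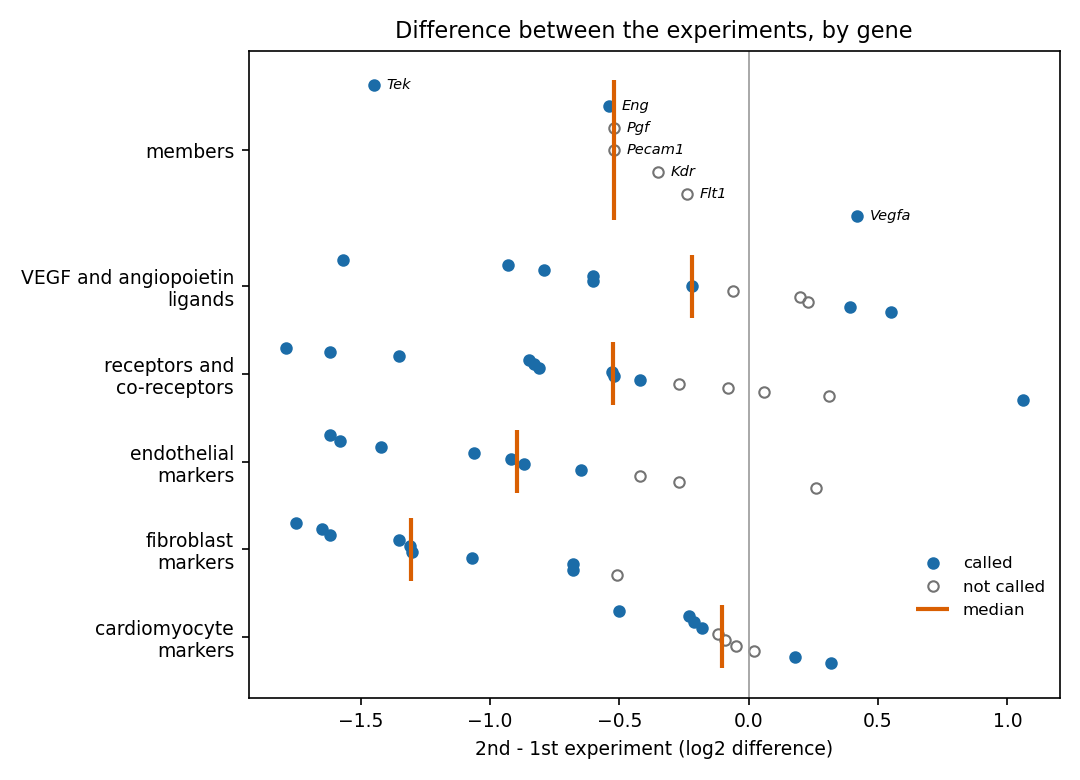
Log2 difference of the second from the first experiment for the 7 measured genes and, gene by gene, for lists of ligands, receptors and cell type markers, with filled points for genes called at an adjusted p below 0.05 and a vertical bar at the median of each list. Tek (-1.45) lies among the endothelial and fibroblast markers (medians -0.90 and -1.31), whereas cardiomyocyte markers have a median of -0.10.

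The wider pathway was described with 6 lists of 123 genes, of which 112 had a probe set and 89 were tested. The lists were chosen with earlier results of these data known. Each list gene was taken by its probe set of highest mean signal, whereas the shares over all probe sets include fainter ones. The shares set side by side are therefore a description. CVZ raised 12 and lowered 5 of the 89 (19.1%, against 7.96% of all probe sets). COR raised 2 and lowered 3 (5.62%, against 3.39%), and ALD raised 1 (1.12%, against 0.95%). The median log2 difference of the 89 with CVZ was 0.01, as for all probe sets. RU486 alone and ligand plus RU486 against RU486 each called 0 of the 89 in limma, with 10 and 2 at an unadjusted p below 0.05.

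Among 11 ligands tested, CVZ raised Fgf1, a fibroblast growth factor (0.47 ± 0.10, adjusted p = 0.007), and Adm, the vasodilator peptide adrenomedullin (0.76 ± 0.19, 0.022), and lowered Pdgfa, a platelet-derived growth factor chain (-0.92 ± 0.16, 0.0014). Pdgfa was lowered by COR too (-0.75, 0.015). Its signals were 7.16, 4.36, 4.0 and 5.61 with vehicle, CVZ, COR and ALD in the first experiment and 9.32, 4.18, 5.80 and 9.36 in the second. The VEGF relatives Vegfb (0.02) and Vegfc (0.22) and the Tek ligand Angpt2 (0.42) were not called with CVZ, with adjusted p of 0.95, 0.59 and 0.63. Vegfc, like Tek, was lower in the second experiment (-1.57, 1.8e-07), and Vegfb, like Vegfa, was higher (0.55, 1.8e-05).

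Among 14 receptors, CVZ lowered Nrp1 (neuropilin 1), the co-receptor that presents Vegfa to Kdr. Nrp1 read 31.9, 15, 24.2 and 25.6 with vehicle, CVZ, COR and ALD in the first experiment and 21.0, 9.42, 16.0 and 21.6 in the second. The RU486 arrays read 24.9 alone, and 23.1, 24.8 and 23.5 with CVZ, COR and ALD. Both CVZ arrays lay below all others, a rank not counted over all probe sets, and the 4 RU486 arrays were within 23.1 to 24.9. The difference from vehicle was -1.12 ± 0.11 with CVZ (adjusted p = 4.1e-06), -0.39 with COR (0.071) and -0.14 with ALD (0.79). Nrp1 was higher with COR than with CVZ by 0.72 (0.0048), and with ALD than with CVZ by 0.98 (5.1e-05). As Nrp1 was named for its call with CVZ, these comparisons reuse the CVZ arrays that chose it. So does that of ligand plus RU486 against ligand, below.

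Nrp1 was also higher with ligand plus RU486 than with ligand alone, by 0.69 ± 0.09 (adjusted p = 0.00015), a call lost without the array of CVZ plus RU486 (0.43, 0.068). Its call for COR against CVZ was lost without the first COR array (0.68, 0.072), the second (0.77, 0.056) or the second CVZ array (0.63, 0.074). CVZ further raised Bmpr2, a bone morphogenetic protein receptor (0.70 ± 0.11, 0.00042), and Igf1r, the insulin-like growth factor 1 receptor (0.51 ± 0.13, 0.026). The Tek relative Tie1 was not called (0.25, adjusted p = 0.76).

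Of 23 genes of signal transduction below the VEGF receptor, Pik3r1, the regulatory subunit of phosphoinositide 3-kinase, was raised by all 3 ligands. It read 2.49, 13.8, 9.42 and 4.18 with vehicle, CVZ, COR and ALD in the first experiment and 1.97, 10.2, 5.60 and 3.35 in the second. After RU486 the signal was 2.13 without ligand, and 2.37, 2.13 and 2.71 with CVZ, COR and ALD. All 6 ligand arrays were above both vehicle arrays, a separation not counted over all probe sets, and the RU486 arrays lay near vehicle. Pik3r1 was named for its calls with the ligands, so its interaction below reuses the arrays that chose it. The differences were 2.39 ± 0.17 for CVZ (adjusted p = 7.8e-08), 1.68 ± 0.17 for COR (9.2e-06) and 0.74 ± 0.17 for ALD (0.048), and the ALD call was lost on leaving out any of 7 arrays (0.64 to 0.83): vehicle, CVZ and ALD of either experiment, or the first COR array.

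The response of Pik3r1 with RU486 was smaller than without, by an interaction of -1.44 ± 0.23 (adjusted p = 0.0041). This was lost without the array of CVZ plus RU486 (-1.04, 0.12). Shb, an adaptor that binds the phosphorylated VEGF receptor, was lowered by CVZ (-0.57 ± 0.15, 0.023).

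Of 22 transcription factors, CVZ raised Klf2, a flow-responsive factor of endothelium (1.12 ± 0.20, adjusted p = 0.0015), Foxo1 (0.85, 0.012) and the hypoxia-pathway factors Epas1 (0.82 ± 0.13, 0.00034) and Arnt (1.42 ± 0.28, 0.0035). It lowered Ets2 (-0.96, 6.9e-05) and Mef2c (-0.78, 0.00014). COR raised Klf2 (0.81, 0.035) and lowered Ets2 (-0.61, 0.0095) and Mef2c (-0.46, 0.028). Of 9 Notch genes CVZ raised Notch1 (0.77, 0.038), and of 10 inhibitors of vessel growth it raised Adamts1, a protease that sequesters VEGF (1.03 ± 0.13, 3.7e-05), and Timp3, which blocks VEGF binding to Kdr (0.41, 0.02).

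With ligand plus RU486 against ligand, 4 of the 89 pathway genes were higher (Pdgfa, Nrp1, Hes1 and Ets2) and 4 lower (Pik3r1, Epas1, Adamts1 and Timp3). That is 8.99% against 4.87% of all probe sets, again a description of lists chosen with earlier results known. Without the array of CVZ plus RU486 the calls of Pdgfa (0.41), Nrp1 (0.43), Ets2 (0.46), Epas1 (-0.14), Adamts1 (-0.26) and Timp3 (-0.19) were lost and that of Pik3r1 was kept. The call of Hes1 was not checked by leaving out arrays. Pdgfa was also lost without the second CVZ array (0.41) or COR plus RU486 (0.56), and Adamts1 without the second CVZ (-0.40), second ALD (-0.36) or COR plus RU486 array (-0.42). Epas1 (-0.43 to -0.24) and Timp3 (-0.35 to -0.29) were lost without either CVZ or COR array, the second ALD array or COR plus RU486 as well.

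The calls for CVZ of Nrp1, Pik3r1, Bmpr2, Klf2, Epas1, Ets2, Mef2c and Adamts1 were kept whichever array was left out. Without the second vehicle array those of Arnt (0.96), Adm (0.77), Fgf1 (0.36), Foxo1 (0.75), Igf1r (0.46), Notch1 (0.92), Shb (-0.63) and Timp3 (0.42) were lost. Without the first vehicle array, Adm (0.75), Igf1r (0.55), Notch1 (0.63), Shb (-0.50) and Timp3 (0.41) were lost. Without the second CVZ array the losses were Pdgfa (-0.62), Adm (0.84), Fgf1 (0.47), Igf1r (0.37), Notch1 (0.84), Shb (-0.45) and Timp3 (0.38). Without the first they were Adm (0.68), Fgf1 (0.46), Foxo1 (0.75), Notch1 (0.71) and Timp3 (0.45), and without the first COR array Notch1 (0.77).

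For COR, the calls of Klf2, Pdgfa and Mef2c were lost without any 1 of the vehicle or COR arrays (Klf2 0.63 to 0.98, Pdgfa -0.84 to -0.66, Mef2c -0.52 to -0.39). That of Ets2 was lost without the first vehicle array (-0.48) or either COR array (-0.66 and -0.55).

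Of 10 endothelial markers tested 1 was called with CVZ, against 7.96% of all probe sets. CVZ also raised 1 of 10 cardiomyocyte markers (Myh7), 1 of 10 fibroblast markers (Tcf21) and 1 of 8 markers of smooth muscle and pericytes (Cspg4). The endothelial marker called, Thbd, the anticoagulant receptor thrombomodulin, read 0.815 with vehicle and 5.33 with CVZ in the first experiment and 0.651 and 2.70 in the second. Its log2 difference was 2.28 ± 0.29 (adjusted p = 5.6e-05). The median of the 10 was 0.23 with CVZ, 0.12 with COR and 0.22 with ALD, against 0.01, 0.01 and 0.02 for all probe sets, and 0 were called with COR or ALD.

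The genes whose pattern was most like that of Kdr were named by the Pearson correlation of log2 signal over the 12 arrays, among 10081 genes. The mean of the vehicle, CVZ, COR and ALD arrays of each experiment was first taken off. Each gene was taken here by its probe set of highest correlation. They were Rasgrp1, an activator of Ras (r = 0.972), Fbxo32, the muscle ubiquitin ligase atrogin-1 (0.971), Fkbp3, a prolyl isomerase (0.967), Ssh1, a cofilin phosphatase (0.960), and Adcy6, a cardiac adenylyl cyclase (0.956). Fkbp5 ranked 16th, at 0.933. These correlations describe arrays that share treatments and vehicles.

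Rasgrp1 read 0.502, 3.06, 2.88 and 2.48 with vehicle, CVZ, COR and ALD in the first experiment and 0.399, 3.23, 3.14 and 2.61 in the second. With RU486 it read 0.469 alone, and 0.894, 1.19 and 1.05 with CVZ, COR and ALD. Rasgrp1 was picked for its likeness to Kdr over these same arrays, so a shared pattern follows from that choice. Its mean log2 difference of ligand plus RU486 from RU486 was 1.04, that of Fbxo32 was 0.39, of Ssh1 0.19, of Adcy6 0.16 and of Fkbp3 0.06.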

How the data were processed

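RNA from 12 cultures was hybridised to Affymetrix rat arrays of 31099 probe sets. The deposited values are intensities on a linear scale, made with MAS5 per the submitters' processing notes and divided by the authors by each array's own median, as the values show. The version and other steps are not given in the sources used here. Arrays have no depth, and their number limits the precision. Gene symbols came from the array annotation, updated to current ones (20832 with 1 gene, 436 with several, 9831 with none). The members and the lists were chosen with earlier results of these data known.

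After 57 control probe sets were set aside, log2(signal + 0.0696), the pseudocount being the 10th percentile of all values, was fitted with limma 3.58.1 in R 4.3.3 (lmFit, eBayes with a mean-variance trend) for 18625 probe sets above the 40th percentile of mean log2 value. The fit had 8 groups and the experiment as a replicate block, 3 residual and 12.2 prior degrees of freedom, and assigned the lone RU486 arrays the spread of the other groups. Calls were made at an adjusted p (Benjamini-Hochberg, two-sided) below 0.05, over all tested probe sets in each of 15 comparisons. The labels name the experiment, and deviations of same-experiment arrays correlated at 0.512 to 0.567 between groups. Replicates of a group correlated at 0.946 to 0.95, with 0 identical values. The procedure was checked on simulated data.

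Named besides the members were list genes called with a ligand or RU486 and some others of highest signal in each list, the 5 genes most like Kdr, and Fkbp5. Not every gene of that rule is reported, and Vegfc, Angpt2, Tie1, Hes1 and Thbd were named outside it, after their values were seen. Promoter sequences are from RefSeq on GRCr8. Alternatives were the pseudocount, filter, scaling, trend, block, probe set, the second experiment alone and leaving out each array.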

Additional observations from a re-analysis of the deposited data

Results flagged for a closer look

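By the test of the difference itself (limma, mean of 3 ligands), a change of the ligand response with RU486 was called in 3 of the named genes. The genes searched were the 6 members other than Kdr, pathway genes called with a ligand or RU486, Thbd and Fkbp5. Those pathway genes were the 17 called with CVZ, which include all called with COR or ALD. They were kept by calls on the same ligand and vehicle arrays that enter this test. That choice favours a smaller response with RU486. Over all probe sets this test called 1.09%. Thbd was named after its values were seen, and Fkbp5 as a known readout of these ligands. For Fkbp5 the difference was -2.72 ± 0.19 on the log2 scale (adjusted p = 2.3e-06), from 3.70 without RU486 to 0.98 with it. For Pik3r1 it was -1.44 ± 0.23 (0.0041), from 1.60 to 0.16, and without the array of CVZ plus RU486 it was -1.04 (0.12). For Thbd it was -1.81 ± 0.41 (0.045), from 1.24 to -0.57, and this call was lost under 13 of 19 alternatives. Without the array of CVZ plus RU486 the value for Thbd was -1.31 (adjusted p = 0.48), and over the other arrays left out, it ranged from -2.23 to -1.57.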

How the results depend on the processing

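Kdr kept the sign of its log2 differences of ligand from vehicle and of ligand plus RU486 from RU486 under all alternatives run. Its second, faint probe set moved CVZ to 0.63, COR to 1.01 and ALD to 0.43, and turned ligand plus RU486 against ligand to 1.31, the interaction to 0.53 and RU486 against vehicle to 0.78. Without the replicate block, which pairs arrays of an experiment, 49 of 51 called results for named genes were lost: 1 pathway gene was called with CVZ, 0 with COR, 0 with ALD, and 0 members for ligand plus RU486 against ligand, and the probe sets called fell from 1483 to 215 (CVZ), 632 to 41 (COR) and 177 to 13 (ALD). Without the mean-variance trend 40 of 54 were lost, with 7, 1 and 0 pathway genes, 646, 117 and 15 probe sets, 0 members for ligand plus RU486 against ligand, and 1 member, Pecam1, called with CVZ. Quantile normalization called 1 member with CVZ, Vegfa (-0.30, adjusted p = 0.047). Pik3r1 with ALD, the 1 pathway gene there, fell to 0 with no filter and with trimmed-mean scaling. Leaving out 1 array at a time moved the pathway genes called from 17 to between 11 and 19 (CVZ), from 5 to between 1 and 8 (COR) and from 1 to 0 or 1 (ALD), the members called for ligand plus RU486 against ligand from 1 to 0 or 1, and the probe sets called to 994 to 1550 (CVZ), 341 to 692 (COR) and 117 to 186 (ALD). Over all alternatives the probe sets called ranged from 0 to 42 for RU486 against vehicle (24 as reported), 0 to 3 for ligand plus RU486 against RU486 (0), 43 to 1042 against ligand (907), 0 to 232 against vehicle (148), 0 to 355 for the interaction (203) and 5443 to 7446 for the experiments (7245). The share of calls that were higher moved from 59.9% to 49.2% (CVZ, trimmed mean), 71.8% to 61.5% (COR, trimmed mean), 91.5% to 80.2% (ALD, quantile), 38.6% to 50.4% (ligand plus RU486 against ligand, quantile) and 81.8% to 71.6% (against vehicle, trimmed mean). The number of arrays and the faint signals of Flt1, Pecam1 and Pgf limit what could be called.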
